A study of Mus musculus with 9 samples.

Results

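The genes described here mark T cells, natural killer (NK) cells, B cells and plasma cells, the lymphocytes of the adaptive and cytotoxic immune response. They were chosen by name as lineage markers, with earlier results of these data known. Of 44 genes listed, 42 had a probe set annotated to that gene alone, out of 22180 genes measured. Of the 42, 37 passed the filter on low values, so they could be tested among 17478 genes in all. Expression of Cd247 and Lck was not analysed here, but both are among the genes whose promoters were searched. Ctla4, Gzma, Klrb1c, Ms4a1 and Cr2 were measured but lay below the filter.

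RNA was measured in mammary tissue of 9 female mice of the FVB strain, 1 array per mouse and 3 mice per group. One group was normal gland from wild-type littermates. The others were primary mammary tumours of Wnt1+/- mice, 1 group non-metastatic and 1 metastatic. In this model the MMTV promoter drives Wnt1 in the mammary epithelium. Mice of all 3 groups drank 200 ug/ml doxycycline with 6% sucrose from 6 weeks of age, and tumours were collected at 20 mm. Mean age at collection was 542 days for normal glands, 291 days for non-metastatic tumours and 288 days for metastatic tumours. Ages ranged from 533 to 556, 222 to 354 and 281 to 300 days, in that order. Age and the presence of a tumour therefore cannot be told apart in any comparison with normal gland. The samples were frozen pieces of whole tissue, so fewer cells of a type and less RNA per cell cannot be told apart in any value below.

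T cells carry an antigen receptor bound to the CD3 chains, which pass its signal on through ZAP70 and the adaptor LAT. The co-receptors CD4 and CD8 divide T cells into helper and cytotoxic kinds. Cytotoxic T cells and NK cells kill target cells by releasing perforin and granzymes. B cells carry surface antibody bound to CD79A and CD79B, and plasma cells, into which they mature, secrete antibody. In the mammary gland, plasma cells are known for supplying the antibody of milk.

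Promoter sequences are shown for 5 cytotoxic and NK genes, because the letters TGTGGT, the core bound by RUNX factors, recurred in that group. On the opposite strand that core reads ACCACA, and both were counted. RefSeq promoters on GRCm38.p6 were matched by symbol for 31 of the 44 genes, and the 250 bases before each listed start were searched on both strands. Of 9 cytotoxic and NK genes with a promoter, 7 held these letters (Gzma, Gzmb, Prf1, Nkg7, Ncr1, Klrb1c and Klrk1). The same letters were found in 2 of 7 T cell receptor and signalling genes, 0 of 4 other T cell surface genes, 0 of 3 regulatory and checkpoint genes, and 0 of 8 B and plasma cell genes. Across the 27025 genes of the promoter table, 15.9% held them. The printed windows lie at chr14:56262335-56262534 for Gzmb (minus strand), chr10:61297636-61297750 for Prf1 (plus strand), chr7:43436938-43437137 for Nkg7 (plus strand), chr7:4337515-4337714 for Ncr1 (plus strand) and chr6:129623904-129624064 for Klrk1 (minus strand). They end just before the gene's outermost start, run 5′ to 3′ on the gene's strand, and have the matching letters in capitals.
Gzmb: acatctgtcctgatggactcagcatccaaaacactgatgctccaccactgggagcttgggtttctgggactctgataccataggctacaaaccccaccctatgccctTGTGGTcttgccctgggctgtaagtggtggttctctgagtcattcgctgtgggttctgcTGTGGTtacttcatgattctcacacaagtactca
Prf1: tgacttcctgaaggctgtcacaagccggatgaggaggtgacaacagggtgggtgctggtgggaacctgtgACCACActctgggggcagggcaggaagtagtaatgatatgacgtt
Nkg7: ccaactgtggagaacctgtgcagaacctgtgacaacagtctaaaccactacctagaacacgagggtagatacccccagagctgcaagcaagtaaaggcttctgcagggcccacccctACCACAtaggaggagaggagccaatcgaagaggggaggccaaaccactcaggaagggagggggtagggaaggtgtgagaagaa
Ncr1: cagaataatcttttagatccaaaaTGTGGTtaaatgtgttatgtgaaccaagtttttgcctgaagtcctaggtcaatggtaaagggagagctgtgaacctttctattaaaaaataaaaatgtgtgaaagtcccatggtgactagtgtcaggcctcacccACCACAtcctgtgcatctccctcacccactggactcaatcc
Klrk1: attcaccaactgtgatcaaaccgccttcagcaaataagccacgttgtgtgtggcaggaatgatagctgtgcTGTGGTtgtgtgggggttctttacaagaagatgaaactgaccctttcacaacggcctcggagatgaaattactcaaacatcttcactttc

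Gzmb and Ncr1 each held 2 matches in the printed window, and the other 3 genes held 1. The letters CAGGAAG contain the core bound by ETS factors. They, or CTTCCTG on the opposite strand, were found in 4 of 7 T cell receptor genes, 3 of 4 T cell surface genes, 0 of 3 regulatory and checkpoint genes, 3 of 9 cytotoxic and NK genes and 1 of 8 B and plasma cell genes, against 12.1% of all genes in the table. That 1 B cell gene was Cd79a, whose window at chr7:24897297-24897496 (plus strand) is shown because Cd79a is among the genes that were lower in tumours.
Cd79a: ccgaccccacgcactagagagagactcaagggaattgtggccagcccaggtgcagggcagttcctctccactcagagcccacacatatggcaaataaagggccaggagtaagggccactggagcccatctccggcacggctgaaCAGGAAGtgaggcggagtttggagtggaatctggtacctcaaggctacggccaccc

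The octamer ATGCAAAT, or ATTTGCAT on the opposite strand, is known from immunoglobulin promoters. It was found in 0 of the 8 B and plasma cell promoters and in 1.81% of all genes. No match of one of these motifs overlapped a match of another in the windows of the listed genes. A match is a run of letters, not a measured binding site.

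Medians of the 9 arrays lay between 5.80 and 5.94 on the deposited log2 scale. The epithelial genes Epcam, Krt8 and Krt18 were well above the filter on all 9 arrays, at 8.60 to 11.85. Normal gland 2 differed from normal glands 1 and 3 in tissue content, with a skeletal muscle marker score of 3.14 against -0.80 and -0.44 and an epidermis score of 4.08 against -0.65 and -0.47. A list score is the average, over the genes of a list, of each gene's log2 deviation from its own 9-array mean. All 9 adipocyte markers were lower in tumours than in normal gland, with list scores of 2.66 to 3.60 in normal glands and -2.18 to -0.56 in tumours. How far these shifts in tissue content bear on the lymphocyte values was not tested.

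Compared with normal gland, the 6 tumours together had lower values for 10 of the 37 genes tested and higher values for 0, with 27 not past the threshold. Of all genes tested, 9.13% were called lower and 13.6% higher in that comparison; of the lymphocyte genes, 27% were called lower. The 10 genes were Cd3g, Cd4, Cd28, Prf1, Nkg7, Ncr1, Cd79a, Cd37, Tnfrsf17 and Mzb1. All 6 tumours lay below all 3 normal glands for 6 of the 37 genes, against 10.3% of all genes tested, and above them for 0, against 15.7%. The median difference over the 42 measured genes was -0.31 (log2), against 0.04 over all genes tested and 0.02 over all 22180 measured. Each value of a difference is on the log2 scale, and a gene was called at an adjusted p under 0.05 (limma, Benjamini-Hochberg over 17478 genes). The count of 10 called genes was 3 without normal gland 1, 4 without normal gland 3, 5 without non-metastatic tumour 2, metastatic tumour 1 or metastatic tumour 3, and 15 without non-metastatic tumour 1. The share of all genes called, higher or lower, was 22.8% in the main fit. In these fits it was 11.3%, 23.5%, 18.7%, 16.2%, 16.2% and 22.3%, in the order given.

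Taken separately, non-metastatic tumours were lower than normal gland for 5 genes (Prf1, Cd79a, Cd37, Tnfrsf17 and Mzb1) and higher for 1 (Tnfsf8), where 7.6% of all genes were called lower and 11.2% higher. Metastatic tumours were lower for 4 genes (Cd3g, Prf1, Cd37 and Tnfrsf17) and higher for 0, where 6% of all genes were called lower and 7.35% higher. The lower calls were thus 13.5% and 10.8% of the 37 genes. The median differences over the 42 genes were -0.26 and -0.43. All values of the 3 metastatic tumours lay below all 3 normal glands for 18 of the 37 genes tested, against 15.3% of all genes tested, and above them for 2 (Ccr7 and Pdcd1), against 23.2%. For non-metastatic tumours the counts were 9 below, against 14.3%, and 1 above, against 21.9%. The 3 comparisons share the normal glands. The 6 calls in non-metastatic tumours became 3 when normal gland 1 was left out and 0 when non-metastatic tumour 2 was. The share of all genes called went from 18.8% to 7.59% and 8.8% in these fits. The 4 calls in metastatic tumours became 0 without normal gland 1 or any metastatic tumour, 2 without normal gland 3 or non-metastatic tumour 2, and 7 without non-metastatic tumour 1. Of all genes, 13.3% were called in the main fit for metastatic tumours. That share was 4.44% without normal gland 1, 3.62% to 6.21% without a metastatic tumour and 16.1% without normal gland 3. Without non-metastatic tumour 2 it was 11.7%, and without non-metastatic tumour 1 it was 12.1%.

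**Figure D1:**
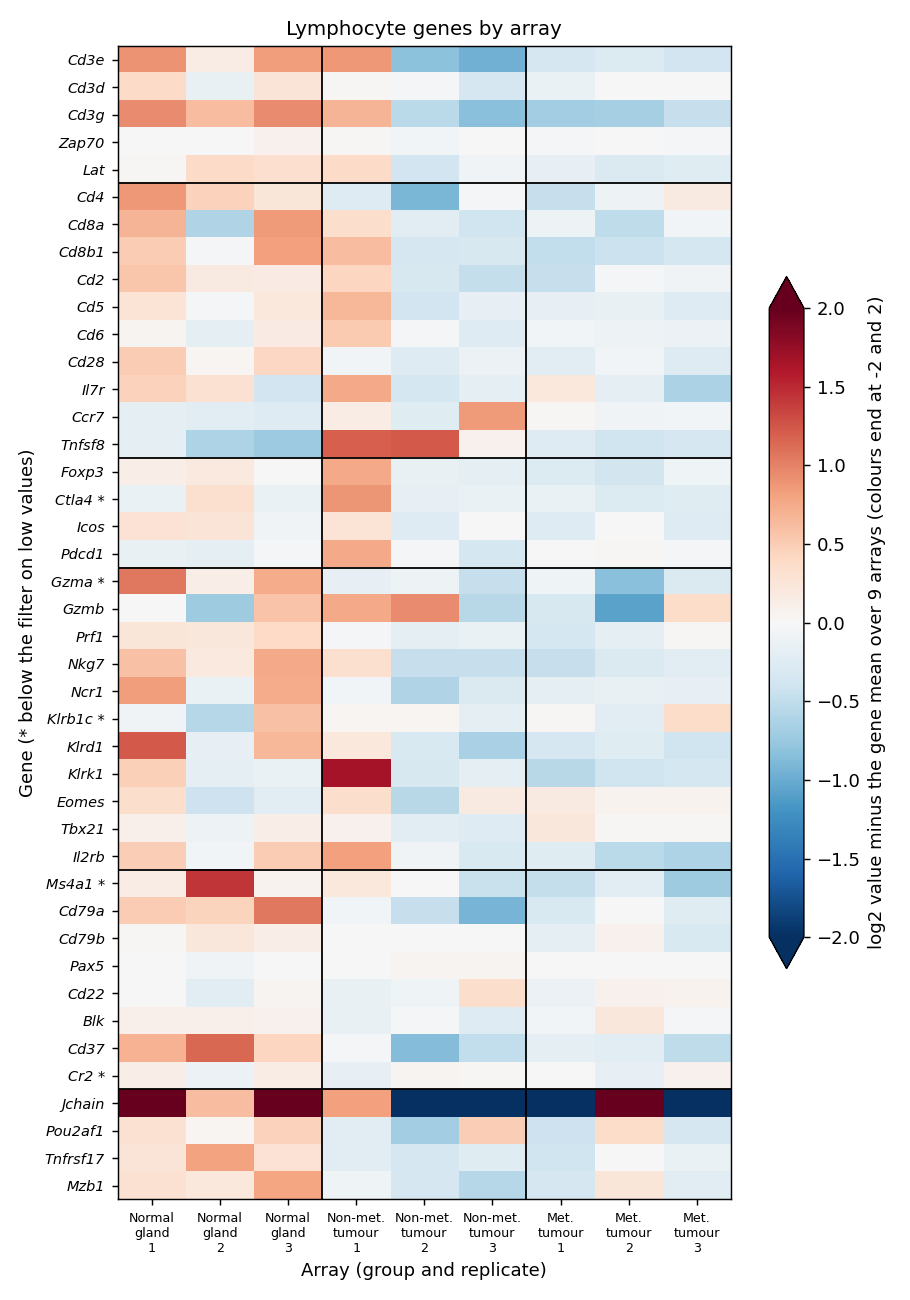
The 42 measured lymphocyte genes (rows, grouped by role) on each of 9 arrays (columns, 3 per group), coloured by log2 deviation from each gene's own 9-array mean. Non-metastatic tumour 1 carries a column of raised T cell and checkpoint genes, and Jchain spans the widest range, from 5.12 to 10.56.

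The heat map of the listed genes by array shows the 3 features that recur below: higher values in normal glands for many genes, a raised non-metastatic tumour 1 among T cell genes, and a raised metastatic tumour 2 among plasma cell genes. The plot of differences from normal gland then gives the fitted size and error for each tested gene.

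**Figure D2:**
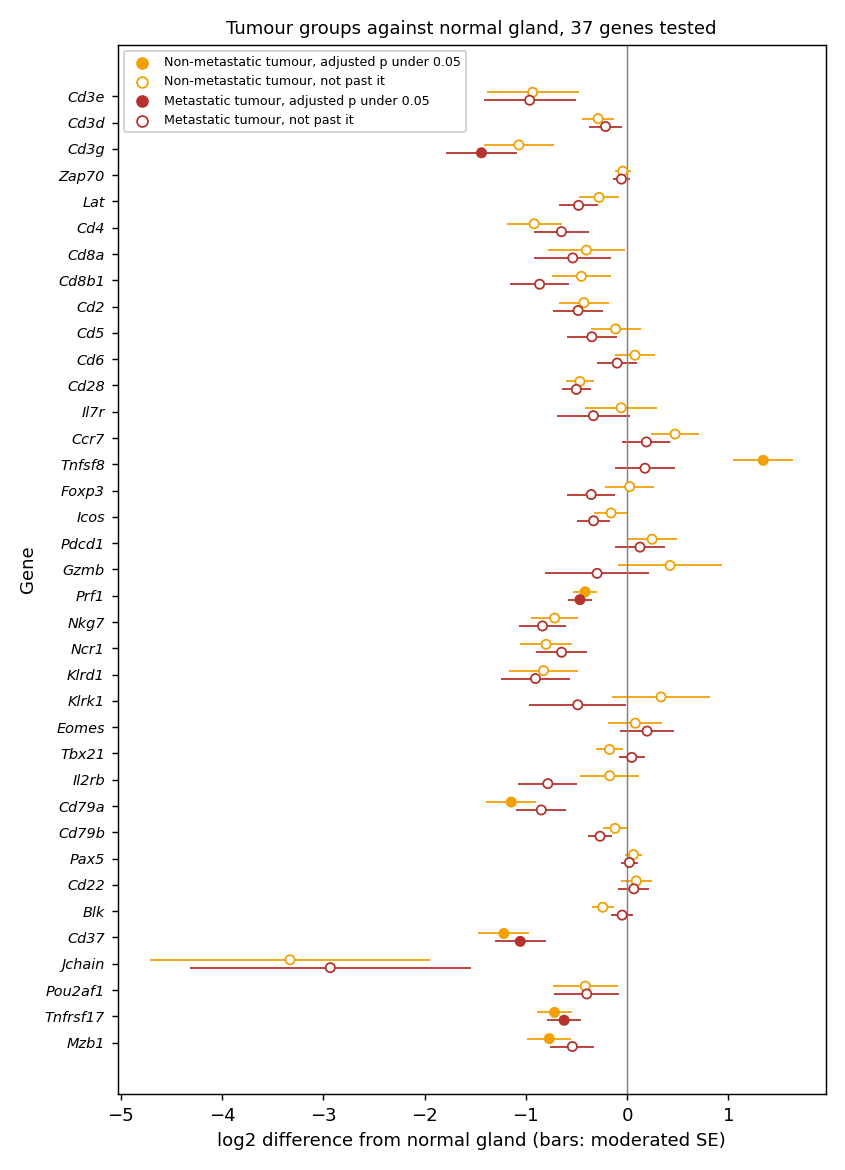
log2 difference from normal gland (x axis) of the 37 tested genes (y axis) in non-metastatic and metastatic tumours, with bars for the moderated standard error and filled points where the adjusted p was under 0.05. Most points lie left of 0, Tnfsf8 in non-metastatic tumours is the filled point on the right, and Jchain has the widest bars.

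Among the T cell receptor and signalling genes, 1 of 5 fell in tumours (Cd3g), and the list's median difference was -0.38. Cd3g, a CD3 chain of the receptor complex, read 8.41, 8.08 and 8.41 in normal glands, 8.15, 6.92 and 6.63 in non-metastatic tumours, and 6.77, 6.81 and 7.01 in metastatic tumours. The metastatic tumours all lay below the normal glands, while non-metastatic tumour 1 lay within the normal range. The tumour mean was lower by a factor of 2.38 (-1.25, SE 0.30, adjusted p = 0.022), and the metastatic tumours alone differed by -1.44 (SE 0.35, adjusted p = 0.035). Non-metastatic tumours alone did not pass (-1.07, SE 0.35, adjusted p = 0.066). The pooled call was lost when normal gland 1, 2 or 3 was left out (adjusted p = 0.080, 0.057 and 0.057). The metastatic call was lost without any 1 of the normal glands or metastatic tumours (adjusted p from 0.065 to 0.103).

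Cd3e, the CD3 chain most often used to identify T cells, read 8.58, 7.83 and 8.53 in normal glands, 8.56, 6.86 and 6.72 in non-metastatic tumours, and 7.35, 7.41 and 7.30 in metastatic tumours. Here too non-metastatic tumour 1 sat with the normal glands and the other 5 tumours below all of them. The spread in non-metastatic tumours (7.38 ± 1.02, SD, n = 3) was far wider than in metastatic tumours (7.35 ± 0.06, SD, n = 3), at near equal means. With that array included Cd3e did not pass in tumours against normal gland (-0.95, SE 0.39, adjusted p = 0.12). Without non-metastatic tumour 1 it passed (-1.24, adjusted p = 0.0076).

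The other genes of this group spanned less. Cd3d, a further CD3 chain, read 5.33 to 5.86 in normal glands and 5.14 to 5.50 in tumours (-0.25, SE 0.14, adjusted p = 0.23). Lat, the adaptor below the receptor, read 6.98 in non-metastatic tumour 1 and 6.20 to 6.52 in the other tumours, against 6.62 to 6.98 in normal glands (-0.38, SE 0.17, adjusted p = 0.14). Zap70, the kinase that binds the activated receptor, stayed between 5.65 and 5.80 on all 9 arrays, with an identical value on several. Cd3g, Cd3d and Cd3e are neighbours on chromosome 9 in the RefSeq gene order.

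Of the 10 other T cell surface genes, Cd4 and Cd28 fell in tumours, 0 rose in that comparison, and the median difference was -0.34. Cd4, the co-receptor of helper T cells that is also found on some macrophages and dendritic cells, read 7.64, 7.24 and 7.01 in normal glands, 6.52, 5.87 and 6.76 in non-metastatic tumours, and 6.32, 6.68 and 6.96 in metastatic tumours. All 6 tumours lay below all 3 normal glands. The tumour mean was lower by a factor of 1.72 (-0.78, SE 0.24, adjusted p = 0.046). Cd28, the co-stimulatory receptor of naive T cells, read 5.96, 5.48 and 5.86 in normal glands and 5.18 to 5.39 in tumours. These values again did not overlap (-0.48, SE 0.12, adjusted p = 0.026). Non-metastatic tumour 1 and metastatic tumour 2 had an identical Cd28 value (5.388), as did non-metastatic tumour 2 and metastatic tumour 3 (5.183). The Cd4 call was lost in 7 of the 9 fits that leave out 1 array (all but without normal gland 3 and non-metastatic tumour 3, adjusted p from 0.052 to 0.166) and with no filter, quantile normalisation or median centring. The Cd28 call was lost without normal gland 1 or 3, non-metastatic tumour 2, or metastatic tumour 1 or 3 (adjusted p from 0.052 to 0.105).

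Neither CD8 chain passed. Cd8a read 6.48, 5.20 and 6.65 in normal glands, with normal gland 2 as low as the lowest tumours, and 5.29 to 6.16 in tumours (-0.47, SE 0.33, adjusted p = 0.34). Cd8b1, its partner, read 6.84, 6.31 and 7.14 in normal glands, 6.94, 5.99 and 6.00 in non-metastatic tumours, and 5.83, 5.90 and 5.97 in metastatic tumours (-0.66, SE 0.25, adjusted p = 0.098). Non-metastatic tumour 1 was again the tumour at the level of normal glands. Without it, Cd8b1, Cd2 and Cd5 passed among T cell surface genes. Cd2 is an adhesion receptor, and Cd5 and Cd6, neighbours on chromosome 19, are related scavenger-type receptors that dampen T cell signals. Cd5 read 6.55 in non-metastatic tumour 1 against 5.50 to 5.73 in the other tumours and 5.86 to 6.17 in normal glands. Cd6 read 6.52 there against 5.74 to 5.97 and 5.79 to 6.16.

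Tnfsf8 was the only tested lymphocyte gene called higher in a tumour group. It encodes CD30 ligand, a TNF family protein of activated T cells and other leukocytes. It read 5.47, 5.05 and 4.94 in normal glands, 6.85, 6.89 and 5.75 in non-metastatic tumours, and 5.40, 5.26 and 5.32 in metastatic tumours. All 3 non-metastatic tumours lay above all other arrays, tumour 3 least. The difference from normal gland was 1.34 (SE 0.30, adjusted p = 0.020) for non-metastatic tumours and 0.18 (adjusted p = 0.73) for metastatic tumours. The call was lost without normal gland 2, non-metastatic tumour 1 or non-metastatic tumour 2 (adjusted p = 0.065, 0.054 and 0.064) and when only the groups compared were fitted (0.061). Il7r, the IL-7 receptor chain of naive and memory T cells, read 6.31 to 7.16 in normal glands and 6.06 to 7.46 in tumours. Ccr7, which guides T cells to lymph nodes, read 6.24 to 6.30 in normal glands, 6.64, 6.26 and 7.34 in non-metastatic tumours and 6.43 to 6.52 in metastatic tumours (0.33 in tumours, SE 0.21, adjusted p = 0.28).

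**Figure D3:**
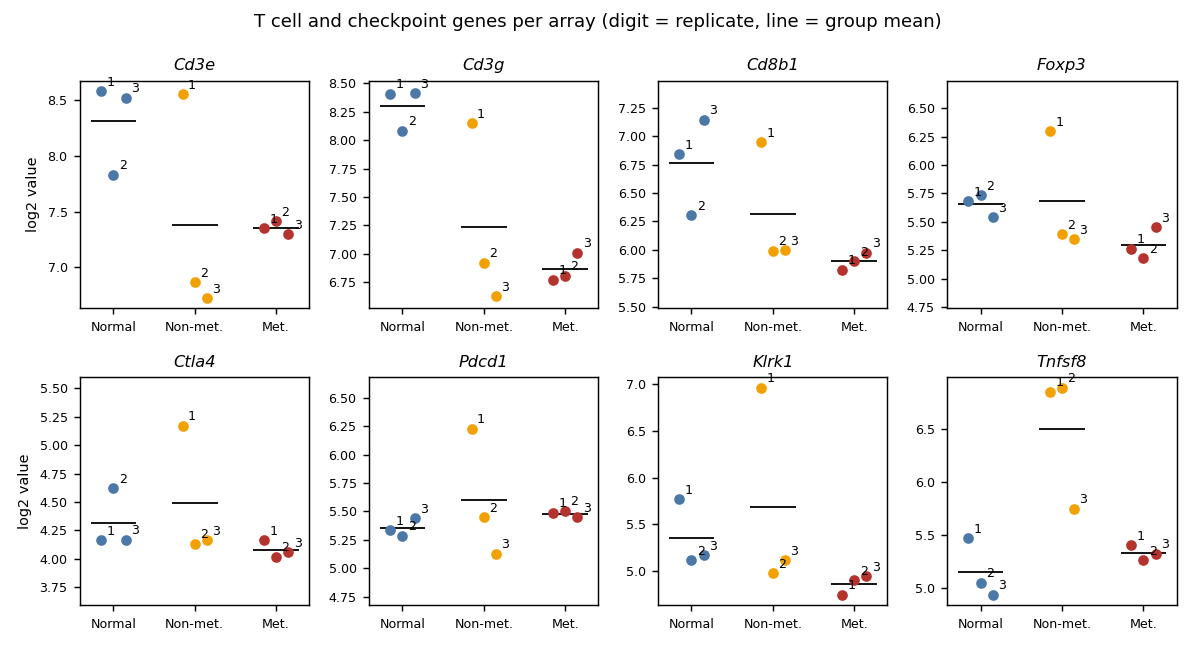
log2 values (y axis) of 8 T cell, checkpoint and NK receptor genes in the 3 groups (x axis), 1 point per array with its replicate number and a line at the group mean. Non-metastatic tumour 1 is the highest tumour for 7 of the 8 genes, with Ctla4 at 5.17, and Tnfsf8 separates all 3 non-metastatic tumours from the other arrays.

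The plot of T cell and checkpoint genes per array shows that the means of the non-metastatic group lie between tumour 1 and the other pair for 7 of the 8 genes. Regulatory and checkpoint genes made this plain. Foxp3, the transcription factor of regulatory T cells, read 6.30 in non-metastatic tumour 1, 5.39 and 5.35 in the other non-metastatic tumours, 5.18 to 5.45 in metastatic tumours and 5.54 to 5.73 in normal glands. Ctla4, an inhibitory receptor of activated and regulatory T cells, read 5.17 there, the only array on which it passed the 30th percentile, and 4.02 to 4.62 elsewhere. Pdcd1, which encodes the inhibitory receptor PD-1, read 6.23 there and 5.13 to 5.51 elsewhere. Icos, a co-stimulatory receptor, read 6.40 there against 5.87 to 6.14 in the other tumours and 6.06 to 6.43 in normal glands. Of the 3 tested genes of this group, 0 passed in any of the comparisons, and the median difference over 4 was -0.10 for tumours against normal gland. For non-metastatic tumours it was 0.10 with tumour 1 and -0.23 without it. Cd28, Ctla4 and Icos follow each other in that order on chromosome 1.

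Non-metastatic tumour 1 was the highest of the 6 tumours for 24 of the 42 genes, or 57.1%. Over all genes tested it was the highest for 22.6%. By role, it was the highest for 5 of 5 T cell receptor genes, 7 of 10 T cell surface genes, 4 of 4 regulatory and checkpoint genes, 6 of 11 cytotoxic and NK genes, 2 of 8 B cell genes and 0 of 4 plasma cell genes. Its T cell receptor score was 0.40, within the 0.21 to 0.50 of normal glands, while the other 5 tumours lay between -0.44 and -0.22. The same array had a pan-leukocyte score of 0.25, against -0.37 to -0.02 in the other tumours. Its chemokine score was 0.53, against -0.30 to -0.17. Its score over interferon-stimulated genes, a list added after the values were seen, was 2.59, against -0.59 to 0.07. Macrophage markers stood at 0.03 there, inside the -0.49 to 0.33 of the other tumours. Markers of other tissue differed too: its adipocyte score was -0.56, against -2.18 to -1.44 in the other tumours, and its mast cell score 0.07, against -1.45 to -0.53. Its basal epithelial score of -1.72 was the lowest of the 9 arrays. It also came from the oldest mouse of the tumour groups, collected at 354 days, against 222 to 300 days for the other tumours. The part of these in the T cell values was not tested.

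**Figure D4:**
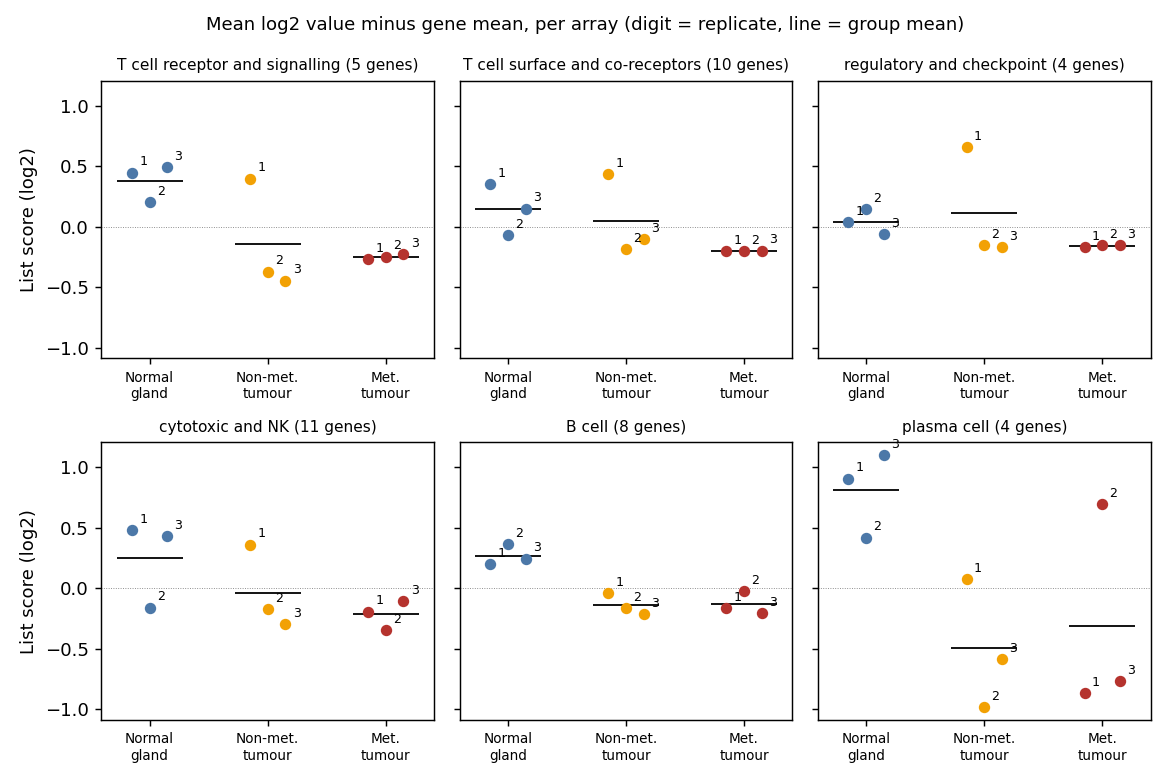
List scores (y axis, mean log2 value minus the gene mean) for 6 groups of lymphocyte genes in the 3 groups (x axis), 1 point per array with its replicate number and a line at the group mean. Non-metastatic tumour 1 tops the tumours in the T cell, checkpoint and cytotoxic panels, and metastatic tumour 2 is the highest tumour in the plasma cell panel at 0.70, below normal glands 1 and 3.

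As the plot of list scores shows, the metastatic tumours were close to each other in all T cell scores, between -0.27 and -0.22 for receptor genes and at -0.20 on all 3 arrays for surface genes. Among the B cell scores, all 3 normal glands (0.20 to 0.37) lay above all 6 tumours (-0.21 to -0.03). Of the 8 genes in this score, 6 had negative differences in tumours, and Pax5 and Cd22 had positive ones. Over a separate list of 17 other B cell genes, the normal glands (-0.07 to 0.05) lay within the range of the tumours (-0.24 to 0.16).

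Among cytotoxic and NK genes, 3 of 9 tested fell in tumours (Prf1, Nkg7 and Ncr1), 0 rose, and the median difference over the 11 measured was -0.44. Prf1 encodes perforin, which opens the target cell's membrane. It read 6.44, 6.42 and 6.59 in normal glands, 6.15, 5.99 and 6.06 in non-metastatic tumours, and 5.83, 6.01 and 6.21 in metastatic tumours. No tumour reached the lowest normal gland. Prf1 passed in both tumour groups on its own, by -0.41 (SE 0.12, adjusted p = 0.047) in non-metastatic and -0.46 (SE 0.12, adjusted p = 0.041) in metastatic tumours, and in both together by -0.44 (SE 0.10, adjusted p = 0.020), a factor of 1.36. The pooled call was lost without normal gland 1, 2 or 3 (adjusted p = 0.059, 0.054 and 0.055). The metastatic call was lost in every fit that left out 1 array (0.052 to 0.124), and the non-metastatic call in all of them but those without metastatic tumour 1 or 3 (0.066 to 0.127). Both were lost when only the groups compared were fitted, and the non-metastatic call also with no filter, other scalings or a trended variance.

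Nkg7, a granule protein of cytotoxic lymphocytes, read 7.35, 6.96 and 7.53 in normal glands, 7.07, 6.31 and 6.31 in non-metastatic tumours, and 6.30, 6.48 and 6.55 in metastatic tumours. Only non-metastatic tumour 1 reached the range of normal glands. The tumour mean was lower by a factor of 1.71 (-0.77, SE 0.20, adjusted p = 0.029). Ncr1 encodes NKp46, a receptor largely restricted to NK cells and related innate lymphocytes. It read 6.19, 5.22 and 6.09 in normal glands, 5.29, 4.74 and 5.07 in non-metastatic tumours, and 5.17, 5.20 and 5.19 in metastatic tumours (-0.72, SE 0.22, adjusted p = 0.049). Normal gland 2 lay among the tumours here. The Nkg7 call was lost without normal gland 1 or 3, non-metastatic tumour 2, or metastatic tumour 1 or 3 (adjusted p from 0.051 to 0.098). The Ncr1 call was lost in every fit that left out 1 array except those without normal gland 2 or non-metastatic tumour 1 (0.073 to 0.175), and with no filter, quantile normalisation, median centring or the robust fit.

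The lectin-like NK receptors differed from each other. Klrd1, which encodes CD94, read 7.56, 6.18 and 7.00 in normal glands and 5.68 to 6.55 in tumours (-0.86, SE 0.30, adjusted p = 0.071). Klrk1, which encodes NKG2D and neighbours Klrd1 on chromosome 6, read 6.96 in non-metastatic tumour 1, 4.97 and 5.11 in the other non-metastatic tumours, 4.74 to 4.94 in metastatic tumours and 5.11 to 5.77 in normal glands. That array thus exceeded every other, normal glands included. Klrb1c was under the 30th percentile on all 9 arrays.

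The granzymes also differed from each other. Gzmb, the granzyme that triggers cell death through caspases, read 5.63, 4.92 and 6.20 in normal glands, 6.39, 6.56 and 5.07 in non-metastatic tumours, and 5.30, 4.56 and 6.00 in metastatic tumours, so all groups overlapped. Gzma, below the filter, read 5.35, 4.43 and 5.04 in normal glands and 3.47 to 4.21 in tumours. When the filter was dropped, Gzma passed in tumours against normal gland (-0.96, adjusted p = 0.027). The transcription factors of this lineage spanned less: Tbx21 read 6.02 to 6.50 over all arrays, and Eomes read 4.66 to 5.42 in normal glands and 4.51 to 5.42 in tumours. Il2rb, a receptor chain for IL-2 and IL-15, read 7.28 in non-metastatic tumour 1, 5.85 to 6.39 in the other tumours and 6.42 to 6.96 in normal glands. In metastatic tumours it differed from normal gland by -0.78 (SE 0.29, adjusted p = 0.11).

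Of 6 B cell genes tested, Cd79a and Cd37 fell in tumours, 0 rose, and the median difference over the 8 measured was -0.17. Cd79a, a signalling chain of the B cell receptor, read 5.85, 5.78 and 6.39 in normal glands, 5.29, 4.89 and 4.41 in non-metastatic tumours, and 5.04, 5.33 and 5.10 in metastatic tumours. All 6 tumours lay below all 3 normal glands, and non-metastatic tumours 2 and 3 were under their array's 30th percentile. The tumour mean was lower by a factor of 1.99 (SE 0.21 on the log2 scale, adjusted p = 0.015). Non-metastatic tumours passed alone (-1.14, SE 0.25, adjusted p = 0.019), and metastatic tumours did not (-0.85, adjusted p = 0.057). The non-metastatic call was lost without non-metastatic tumour 2 (adjusted p = 0.054) and when only the groups compared were fitted (0.055).

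Cd37, a tetraspanin of mature B cells that other leukocytes also carry, read 8.22, 8.68 and 7.95 in normal glands, 7.51, 6.66 and 7.03 in non-metastatic tumours, and 7.36, 7.32 and 7.02 in metastatic tumours. All 6 tumours lay below all 3 normal glands, while the tumour groups overlapped. It had the smallest adjusted p of the 37 genes in tumours against normal gland (-1.14, SE 0.22, adjusted p = 0.010), a factor of 2.20. It passed in both tumour groups, by -1.22 (SE 0.25, adjusted p = 0.017) and -1.05 (SE 0.25, adjusted p = 0.034). The non-metastatic call was lost without normal gland 1, normal gland 2 or non-metastatic tumour 2 (0.052, 0.051 and 0.051). The metastatic call was lost without normal gland 1 or 2 or any metastatic tumour (0.073 to 0.107).

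None of the other 4 tested B cell genes passed in any comparison. Pax5, the transcription factor that fixes B cell identity, stayed between 5.40 and 5.54 on all 9 arrays, Cd22 between 5.55 and 6.12, and Blk between 5.07 and 5.55. Several arrays had an identical Pax5 value. Cd79b, the partner of Cd79a, read 5.90 to 6.10 in normal glands and 5.58 to 5.96 in tumours. Blk and Cd79b were lower in all 3 non-metastatic tumours than in any normal gland. For Cd79b those 3 values were identical at 5.888, just under the 5.900 of the lowest normal gland. Ms4a1, which encodes CD20, passed the 30th percentile only in normal gland 2, at 6.11, and read 3.96 to 4.88 elsewhere. Its 3 metastatic tumours lay below all normal glands, on values under the filter. Cr2, a complement receptor of mature B cells, was under it on all 9 arrays.

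All 4 plasma cell genes had negative differences in tumours against normal gland, with a median of -0.66, and 2 of them fell (Tnfrsf17 and Mzb1). Tnfrsf17 encodes BCMA, a survival receptor of plasma cells. It read 5.31, 5.85 and 5.34 in normal glands and 4.66 to 5.06 in tumours, without overlap (-0.67, SE 0.15, adjusted p = 0.016), a factor of 1.59. All 3 non-metastatic tumours and metastatic tumour 1 were under their array's 30th percentile. Tnfrsf17 passed the filter through the normal glands and metastatic tumours 2 and 3, so its differences are taken partly against values below the filter. It passed in non-metastatic (-0.72, SE 0.17, adjusted p = 0.024) and metastatic tumours (-0.62, SE 0.17, adjusted p = 0.047). The non-metastatic call was lost without normal gland 2 or any non-metastatic tumour (0.051 to 0.074) and with only the groups compared. The metastatic call was lost in every fit that left out 1 array but that without normal gland 3 (0.060 to 0.145), and with no filter, quantile normalisation, median centring or only the groups compared (0.057 to 0.080).

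Mzb1, a chaperone for antibody assembly in the endoplasmic reticulum, read 6.40, 6.31 and 6.88 in normal glands, 6.01, 5.76 and 5.52 in non-metastatic tumours, and 5.76, 6.34 and 5.87 in metastatic tumours. Metastatic tumour 2 was inside the range of normal glands, and the other 5 tumours were below it. It fell by 0.65 in tumours (SE 0.19, adjusted p = 0.040) and by 0.77 in non-metastatic tumours (SE 0.22, adjusted p = 0.043). The pooled call was lost in 7 of the 9 fits that left out 1 array (all but those without non-metastatic tumour 1 or metastatic tumour 2, 0.064 to 0.115) and with quantile normalisation (0.053). The non-metastatic call was also lost in 7 of them (all but without non-metastatic tumour 1 or metastatic tumour 2, 0.056 to 0.105), and with no filter, quantile normalisation or only the groups compared.

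Jchain encodes the chain that joins IgM and IgA into polymers. It read 10.44, 8.30 and 10.56 in normal glands, 8.51, 5.12 and 5.69 in non-metastatic tumours, and 5.37, 9.85 and 5.29 in metastatic tumours. Non-metastatic tumour 1 and metastatic tumour 2 lay within the range of normal glands, and the other 4 tumours read 5.12 to 5.69. The difference was -3.13 (SE 1.20), larger than that of any other listed gene, and did not pass (adjusted p = 0.097). Without metastatic tumour 2 it passed (-3.88, adjusted p = 0.024). Its SD over the 6 tumours was 2.02, against 0.03 for Zap70 and Pax5, which each had an identical value on several arrays. Pou2af1, a coactivator of antibody gene transcription, read 6.34 to 6.76 in normal glands, 6.78 in non-metastatic tumour 3, 6.67 in metastatic tumour 2 and 5.59 to 6.08 in the other tumours (-0.41, SE 0.28, adjusted p = 0.33).

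**Figure D5:**
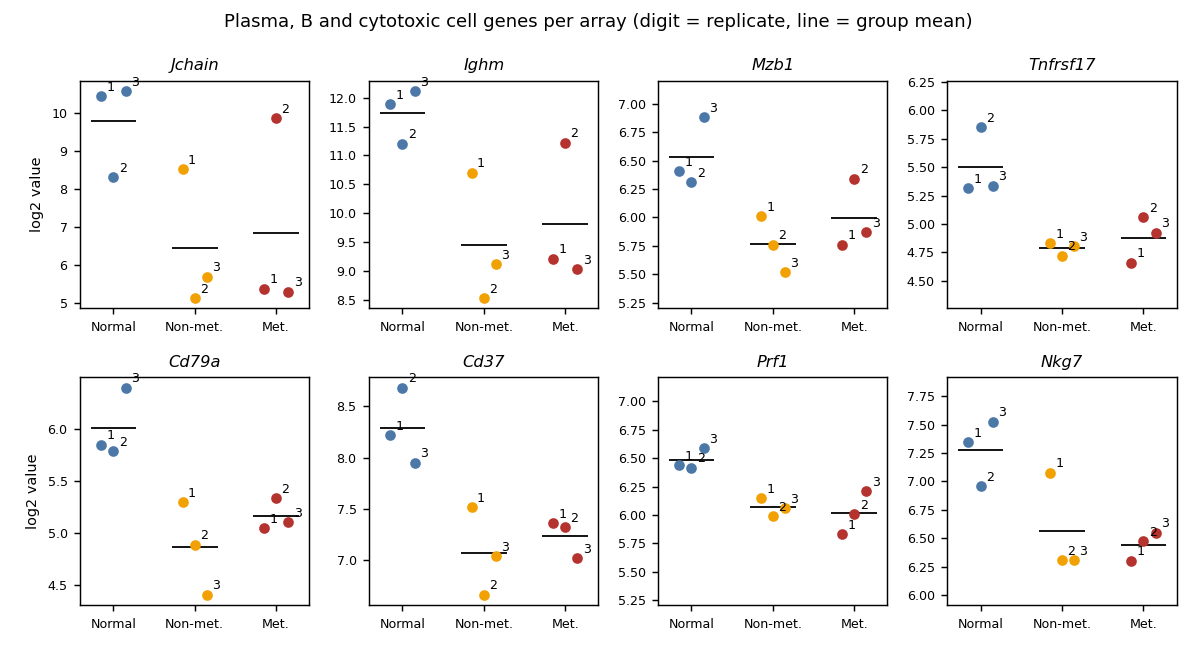
log2 values (y axis) of 8 plasma cell, B cell and cytotoxic genes in the 3 groups (x axis), 1 point per array with its replicate number and a line at the group mean. Jchain and Ighm are high in metastatic tumour 2 (9.85 and 11.22) and non-metastatic tumour 1 (8.51 and 10.70), while Cd37, Cd79a, Prf1 and Tnfrsf17 separate all normal glands from all tumours.

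Ighm, the IgM heavy chain and not one of the 44 genes, followed the same arrays as Jchain in the plot of plasma and B cell genes. It read 11.89, 11.21 and 12.11 in normal glands, 10.70, 8.53 and 9.12 in non-metastatic tumours, and 9.21, 11.22 and 9.03 in metastatic tumours. The difference of tumours from normal gland was -2.10 (SE 0.61, adjusted p = 0.041). Metastatic tumour 2 was the highest tumour for 3 of 4 plasma cell genes and 3 of 8 B cell genes, and for 6 of the 42 genes, against 15.4% of all genes tested. Its plasma cell score was 0.70, with -0.87 and -0.77 in the other metastatic tumours. Jchain varied most of the 4 genes in that score. Over a separate list of 11 other plasma cell genes its score was 0.16, with 0.02 and -0.24 in the other metastatic tumours. Its T cell receptor score of -0.24 lay between theirs.

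Other genes of the same lineages were read from separate lists. Each list had 1 or 2 genes called lower in tumours against normal gland, where 9.13% of all genes were called lower. These were 6.25% of the other B cell genes and 18.2% of the other plasma cell genes, with the remaining shares given below. Of 17 other T cell genes tested, 2 fell (11.8%) and 0 rose, with a median of -0.11 over the 22 measured. These were S1pr1, the receptor by which T cells leave lymph nodes and which endothelium also carries (-1.53, SE 0.24, adjusted p = 0.0057), and Skap1, an adaptor (-0.35, SE 0.11, adjusted p = 0.049). Of 13 other cytotoxic and NK genes, 2 fell (15.4%) and 0 rose, with a median of -0.28 over the 17 measured: the receptors Cd244a (-0.80, SE 0.15, adjusted p = 0.0091) and Cd226 (-0.88, SE 0.22, adjusted p = 0.024). Of 16 other B cell genes, with a median of -0.09 over the 17 measured, 1 fell (Btla, an inhibitory receptor, by 0.34) and 1 rose (Bcl11a, by 2.21, SE 0.45, adjusted p = 0.012), a factor that mammary epithelium also expresses. Of 11 other plasma cell genes, 2 fell: Ighm and Irf4, a factor also found in macrophages and adipocytes (-2.10, SE 0.19, adjusted p = 7.9e-04). The median of these 11 was 0.07, with 6 positive and 5 negative, whereas all 4 plasma cell genes described above were negative.

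Among markers of other leukocytes, pan-leukocyte and macrophage genes had median differences of a like size, and the other lists differed. The median difference of tumours from normal gland was -0.38 for 12 pan-leukocyte genes, 11 of them negative, and -0.29 for 14 macrophage genes, against -0.31 for the 42 lymphocyte genes. It was -0.19 for 8 dendritic, 0.16 for 7 neutrophil and -2.55 for 7 mast cell genes. The metastatic tumours lay below all normal glands for 8 of the 12 pan-leukocyte genes, against 15.3% of all genes tested. By the test, in tumours against normal gland, 1 of 12 pan-leukocyte genes fell (Dock2, by 1.05, adjusted p = 0.018), 1 of 14 macrophage genes fell (Lyz2, by 1.06, adjusted p = 0.037), and 1 of 8 dendritic cell genes fell (Zbtb46), near the 9.13% of all genes. Of 6 neutrophil genes 0 passed, while 5 of 6 mast cell genes fell and 1 rose (Kit, which luminal epithelium also expresses). Of tissue cells, 3 of 8 endothelial and 3 of 7 fibroblast genes fell, and 3 of 8 luminal epithelial genes rose. Ptprc, which encodes the leukocyte antigen CD45, differed by -0.38 (adjusted p = 0.089). Pan-leukocyte scores were 0.18 to 0.35 in normal glands, 0.25 in non-metastatic tumour 1 and -0.37 to -0.02 in the other tumours.

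Because mouse mammary fat pads hold a lymph node, lymph node stroma genes were read as well. The list also named Glycam1, Mfge8, Clu, Enpp2 and Ltb, which are not restricted to that stroma, so its score is not specific to a lymph node. Of 9 tested, 1 fell in tumours (Cxcl13, the chemokine of B cell follicles). Cxcl13 read 8.93, 12.41 and 8.80 in normal glands, 8.27, 6.12 and 8.25 in non-metastatic tumours, and 6.20, 6.03 and 5.44 in metastatic tumours (-3.33, SE 0.85, adjusted p = 0.027). Normal gland 2, highest for Cxcl13, was also the highest of the 9 arrays for Ms4a1, Cd37 and Cd79b among the B cell genes. It was the lowest of the 9 arrays for Pax5 and Cd22, and the lowest normal gland for Cd79a and Cr2. The lymph node stroma score was 0.61, -0.12 and 0.77 in normal glands and 0.31 in non-metastatic tumour 1, against -0.63 to -0.05 in the other tumours. Its part in the lymphocyte differences was not tested.

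Between metastatic and non-metastatic tumours, 0 of the 37 genes passed (limma, adjusted p under 0.05), where 0.00572% of all genes did. At an unadjusted p under 0.05 there was 1 gene, Tnfsf8 (unadjusted p = 0.0042), against 5.07% of all genes tested. Its difference was -1.17 (SE 0.30, adjusted p = 0.88), and without non-metastatic tumour 3 it passed (-1.54, adjusted p = 0.034). The median difference over the 42 genes was -0.07, against -0.02 over all genes tested and -0.02 over all 22180 measured. The 3 metastatic tumours lay below all non-metastatic tumours for 3 of the tested genes, Cd8b1, Tnfsf8 and Klrk1, against 5.84% of all genes tested, and above them for 0, against 4.41%. By role, the median differences were -0.03 for T cell receptor genes, -0.21 for T cell surface genes, -0.28 for regulatory and checkpoint genes, -0.08 for cytotoxic and NK genes, -0.01 for B cell genes and 0.16 for plasma cell genes. Several of these turned sign when 1 array was left out. Without non-metastatic tumour 1, the medians became 0.09 for T cell receptor genes, 0.06 for T cell surface genes and 0.13 for cytotoxic and NK genes. The plasma cell median became -0.12 without metastatic tumour 2 and -0.10 without non-metastatic tumour 2. The B cell median lay between -0.06 and 0.05 over these fits. A difference that misses the threshold with 3 mice per group does not show equal levels.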

How the data were processed

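Total RNA from frozen tissue was hybridised to Affymetrix Mouse Gene 2.0 ST arrays, 1 mouse per array. The deposited values are log2 signals that the authors summarised by RMA, per the submitters' processing notes. RMA quantile-normalises arrays, so a shift shared by most genes is largely removed. Array medians of the deposited values still lay at 5.90 to 5.94 in normal glands and 5.80 to 5.91 in tumours. The software version of RMA was not given in the sources used here. Probe sets with a single gene symbol were kept, the one of highest mean per gene. Genes above an array's 30th percentile of all probe sets on at least 3 of 9 arrays were tested with limma 3.58.1 (R 4.3.3): 1 mean per group, all 9 arrays, moderated variances, Benjamini-Hochberg adjustment, threshold 0.05. The tumour comparison averaged both tumour groups. The code was tested on simulated data. The genes and lists were chosen with earlier results of these data known. Genes named were all the listed ones, plus genes of the other lists past the threshold or used beside a result. Alternatives covered filters, normalisation, variance moderation, array weights, the groups fitted, a replicate block, age among tumours and each array left out. The number of arrays limits precision.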

Additional observations from a re-analysis of the deposited data

Results flagged for a closer look

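With the 6 tumours taken as a single set, 11 of the 42 genes (26.2%) had a tumour whose gap to its nearest neighbour divided by the whole range exceeded Dixon's critical value for 6 samples. Chance gives about 1 in 20, and 11.9% of all genes tested met it here. For 9 of the 11 the separate array was non-metastatic tumour 1, at the top. It read 8.15 for Cd3g (next tumour 7.01), 6.94 for Cd8b1 (6.00), 6.55 for Cd5 (5.73) and 6.52 for Cd6 (5.97). It read 6.30 for Foxp3 (5.45), 5.17 for Ctla4 (4.16) and 6.23 for Pdcd1 (5.51). Among cytotoxic genes it read 7.07 for Nkg7 (6.55) and 6.96 for Klrk1 (5.11). The other 2 came from different arrays. Ccr7, a homing receptor, was highest in non-metastatic tumour 3 at 7.34 (next 6.64), and Eomes was lowest in non-metastatic tumour 2 at 4.51 (next 5.14). These genes share arrays, so the 9 are not 9 separate events.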

How the results depend on the processing

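In tumours against normal gland, Cd37, Cd79a and Tnfrsf17 kept their calls under every alternative in which they were tested. The number of called genes, 10, ranged from 3 to 15 when 1 array was left out, with 10.8% to 23.5% of all genes called. It was 6 of 23 tested with a 50th percentile filter (29.6% of all genes) and 20 with array weights (43.5%). Median centring gave 9 calls, 8 lower and 1 higher (26.2% of all genes), with a median difference over all genes of 0.12. For non-metastatic tumours against normal gland, 6 became 15 with array weights (30.7% of all genes) and 1 with only the groups compared (9.16%). With 1 array left out it was 0 to 7 (7.59% to 21.2%). For metastatic tumours, 4 became 19 with array weights (37.2%), 0 with the replicate block (7.43%), and 0 to 7 with 1 array left out (3.62% to 16.1%). Between tumour groups, 0 became 0 to 1 with 1 array left out (0% to 0.23%). The median of the B cell genes in non-metastatic tumours moved to -0.0867 with median centring. With 1 array left out, that of the regulatory and checkpoint genes there ranged from -0.23 to 0.26, and that of the T cell surface genes between tumour groups from -0.34 to 0.0585. No listed difference that had been called changed sign. The replicate block used numbers that different mice share. Same-numbered arrays deviated together with r from -0.28 to 0.17, and 3 of 9 arrays correlated best with their own number. These values gave no sign of pairing by number. With 3 arrays per group they cannot exclude a factor shared by same-numbered arrays. With the block, 7, 4, 0 and 0 genes were called for all tumours, non-metastatic tumours, metastatic tumours and between tumour groups. The shares of all genes were 17.8%, 12.9%, 7.43% and 0.00572%. Genes near the 30th percentile have values close to background, and with 3 mice a group small differences could not be resolved. The cause of these changes was not tested.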
